A study of Mus musculus with 4 samples.

Results

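The p53 target genes described here are 10 genes chosen as known direct targets of the transcription factor p53: Cdkn1a, Mdm2, Bax, Bbc3, Ccng1, Phlda3, Trp53inp1, Sesn2, Zmat3 and Gdf15. They were found by symbol in the array's gene table. The array measures transcript clusters, groups of probes that together stand for a transcript or gene. For each gene the cluster that carries that gene alone was used, and the one with the highest mean where there were several. Of the 10 genes, 8 had such a cluster, out of 30702 named genes in all, and each of the 8 had a single one. Bax and Gdf15 had none and were not analysed here. Levels are log2 values as deposited by the authors, so a difference of 1 is a 2-fold difference. Genes were compared only where the 4-array mean reached a floor of 5.235, the median of all 65956 clusters. All 8 genes passed, among 17208 genes that did.

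The study used 4 Affymetrix arrays of mouse bone marrow RNA, with 1 array in each group. The groups were cisplatin (a platinum drug that crosslinks DNA), astragalus (the root Astragalus membranaceus), electro-acupuncture (needle stimulation with a current) and control. Tibial marrow was taken after 2 weeks of treatment, 6 marrow samples were mixed, which was read here as 6 per group, and 6 ug of total RNA was labelled. The strain, age, sex, genotype and doses of the mice, and whether the astragalus and electro-acupuncture mice also received cisplatin, are not stated in the sources used here, so these groups were set against both the control and the cisplatin array. With 1 array of mixed marrow per group there is no spread between replicates, no test could be run, and no difference below has a replicate check.

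p53 is a transcription factor that is stabilised when DNA is damaged and then switches on genes that stop the cell cycle, repair DNA or kill the cell. It also switches on its own inhibitor, the ubiquitin ligase Mdm2, which closes a negative feedback loop. Dividing blood precursors of the marrow are among the cells most sensitive to DNA damage, and p53 targets such as Cdkn1a and Bbc3 are known to respond in them.

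p53 binds DNA as a tetramer, and its sites are made of half-sites, each a run of purines, a core of C and G around A or T, and a run of pyrimidines. The 250 bases before a transcription start are shown for Cdkn1a and Ccng1, the members that differed most between the arrays, and for Mdm2, the feedback gene whose level was nearly equal on the 4 arrays. The sequences are RefSeq promoters of the mouse build GRCm38.p6, read 5′ to 3′ on the gene's strand, and capitals mark matches to the p53 half-site consensus or to CATGNNNNNNCATG. The Cdkn1a stretch is chr17:29090729-29090978 on the plus strand, before the upstream of the gene's 2 listed starts. The Ccng1 stretch is chr11:40755287-40755536 and the Mdm2 stretch chr10:117710759-117711008, both on the minus strand.
Cdkn1a: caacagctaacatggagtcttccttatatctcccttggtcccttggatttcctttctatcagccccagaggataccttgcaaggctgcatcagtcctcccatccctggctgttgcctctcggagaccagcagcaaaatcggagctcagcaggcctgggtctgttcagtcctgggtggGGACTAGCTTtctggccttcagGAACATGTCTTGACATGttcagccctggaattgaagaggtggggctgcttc
Ccng1: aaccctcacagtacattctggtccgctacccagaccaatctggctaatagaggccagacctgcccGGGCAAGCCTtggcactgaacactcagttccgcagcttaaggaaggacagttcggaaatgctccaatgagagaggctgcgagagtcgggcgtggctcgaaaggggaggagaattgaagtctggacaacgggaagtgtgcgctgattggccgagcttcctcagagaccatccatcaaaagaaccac
Mdm2: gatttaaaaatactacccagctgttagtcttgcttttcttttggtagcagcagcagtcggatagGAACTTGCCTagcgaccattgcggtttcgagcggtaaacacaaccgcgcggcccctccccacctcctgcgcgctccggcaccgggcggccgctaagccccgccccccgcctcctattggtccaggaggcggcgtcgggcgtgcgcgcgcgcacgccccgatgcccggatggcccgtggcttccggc

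In the Cdkn1a stretch half-sites began 73 and 51 bases before the start, and the CATGNNNNNNCATG match began 48 bases before it and overlapped the nearer half-site. The other Cdkn1a start lies 2790 bases downstream, and its window held no match. Ccng1 had a half-site 185 bases before its start and Mdm2 one 186 bases before its start. The p53-responsive promoter of Mdm2 is known to lie within the gene and is not part of this stretch. RefSeq windows (250 bases before to 50 after a start) were found for 8 of the 10 genes, which gave 12 windows. A half-site was in windows of 4 genes (Cdkn1a, Mdm2, Ccng1 and Bax) and CATGNNNNNNCATG in that of 1, Cdkn1a. Both patterns are their own reverse complements, so the search covered both strands. Among 32851 windows of 300 bases, 8.36% held a half-site and 0.712% held CATGNNNNNNCATG. A match describes the letters and does not show that p53 was bound in these samples.

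Cdkn1a and Ccng1 were higher in all 3 treated arrays than in the control array, each by more than 2-fold. Phlda3 was higher by less than 2-fold in all 3, and Trp53inp1 was lower in all 3, also by less than 2-fold. Mdm2, Bbc3, Sesn2 and Zmat3 lay within 0.26 log2 units on the 4 arrays. At the 2-fold threshold, 2 of the 8 genes were higher and 0 lower in each comparison with control. Of all 17208 genes, 2.01% were at least 2-fold higher in the cisplatin array, 6.13% in the astragalus array and 4.16% in the electro-acupuncture array, and 0.965%, 2.68% and 3.11% were at least 2-fold lower. Among the 11236 protein-coding genes, 1.21%, 3.80% and 2.72% were at least 2-fold higher. The 3 comparisons share the control array, so a low or high control value enters all of them. The medians of the 8 genes were 0.09, 0.05 and 0.075 log2 units for cisplatin, astragalus and electro-acupuncture against control, beside 0.01, 0.05 and 0.04 for all genes.

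**Figure D1:**
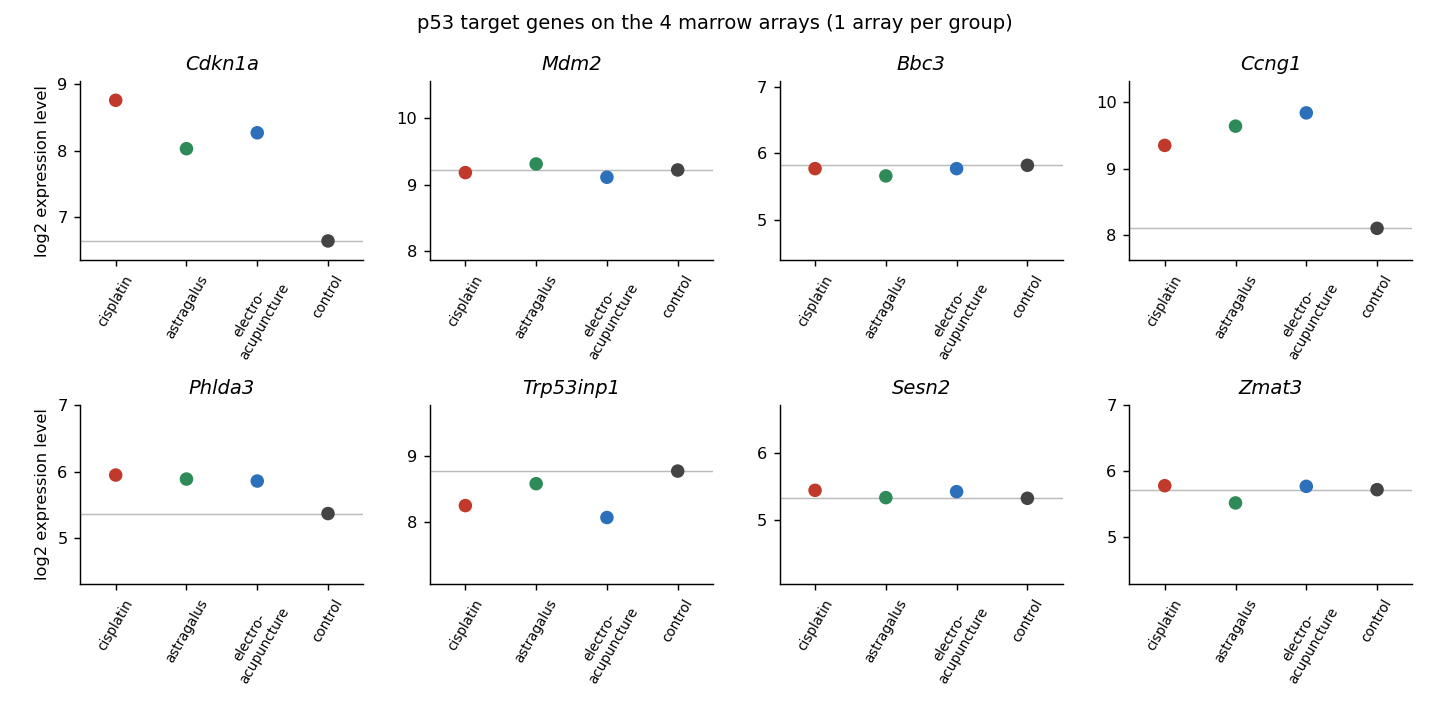
Log2 expression level (y axis, a different range in each panel but the same height in log2 units) of the 8 p53 target genes on the cisplatin, astragalus, electro-acupuncture and control arrays, 1 point per array; the line marks the control level. The points of Cdkn1a and Ccng1 lie at least 1.25 log2 units above the line in the 3 treated groups, and those of Mdm2 lie close to it.

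Cdkn1a encodes p21, the inhibitor of cyclin-dependent kinases through which p53 halts the cell cycle. Its level was 8.76 in the cisplatin array, 8.03 in the astragalus array, 8.27 in the electro-acupuncture array and 6.64 in the control array. The cisplatin array was the highest and the control array the lowest, with both other arrays between them and closer to cisplatin. Against control, the level was 4.35-fold higher with cisplatin, 2.62-fold higher with astragalus and 3.10-fold higher with electro-acupuncture. Few protein-coding genes had a larger difference from control, 22 of 11236 for cisplatin, 144 for astragalus and 47 for electro-acupuncture. Its range over the 4 arrays, 2.12 log2 units, was the widest of the 8 genes. Under quantile normalization, subtraction of array medians or removal of the loess trend, the differences stayed between 2.12 and 2.19, between 1.27 and 1.51, and between 1.59 and 1.68.

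Mdm2 and Ccng1 both belong to the feedback arm. Mdm2 marks p53 for degradation, and Ccng1 encodes cyclin G1, which recruits a phosphatase that activates Mdm2. Ccng1 had a level of 9.35 in the cisplatin array, 9.64 in the astragalus array, 9.84 in the electro-acupuncture array and 8.10 in the control array. Here the electro-acupuncture array was the highest and the cisplatin array the lowest of the 3 treated ones. The level was 2.38-fold, 2.91-fold and 3.34-fold higher than control with cisplatin, astragalus and electro-acupuncture. A larger difference was found in 72, 102 and 39 of the 11236 protein-coding genes. Mdm2 had a level of 9.18 in the cisplatin array, 9.31 in the astragalus array, 9.11 in the electro-acupuncture array and 9.22 in the control array. Its range was 0.20 log2 units, and its differences from control were -0.04, 0.09 and -0.11. The astragalus difference changed sign under other scalings, to -0.05 after quantile normalization and -0.10 with the loess trend removed.

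Bbc3 and Phlda3 act on cell survival. Bbc3 encodes PUMA, which frees the pore formers of the mitochondrial death pathway, and Phlda3 encodes a lipid-binding protein that holds back the survival kinase Akt. Phlda3 had a level of 5.95 in the cisplatin array, 5.89 in the astragalus array, 5.86 in the electro-acupuncture array and 5.37 in the control array. The treated arrays were within 0.09 log2 units of each other and were 1.49-fold, 1.43-fold and 1.40-fold above control. A larger difference was found in 549, 1551 and 1170 protein-coding genes, far more than for Cdkn1a. Bbc3 had a level of 5.77 in the cisplatin array, 5.66 in the astragalus array, 5.77 in the electro-acupuncture array and 5.82 in the control array. It was thus slightly lower in the treated arrays, with differences of -0.05, -0.16 and -0.05.

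Trp53inp1, Sesn2 and Zmat3 have roles in autophagy and redox balance, in the control of growth signalling and in RNA processing. Trp53inp1 encodes a stress-induced protein that takes part in autophagy. Its level was 8.25 in the cisplatin array, 8.58 in the astragalus array, 8.07 in the electro-acupuncture array and 8.77 in the control array. Control was the highest, opposite to the order seen for Cdkn1a and Ccng1. The level was 1.43-fold lower than control with cisplatin, 1.14-fold lower with astragalus and 1.62-fold lower with electro-acupuncture. A more negative difference was found in 393, 1787 and 237 of the 11236 protein-coding genes.

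Sesn2 encodes sestrin 2, an inhibitor of the growth kinase complex mTORC1. It had a level of 5.44 in the cisplatin array, 5.33 in the astragalus array, 5.42 in the electro-acupuncture array and 5.32 in the control array. Zmat3 encodes an RNA-binding zinc finger protein, and its level was 5.78 in the cisplatin array, 5.52 in the astragalus array, 5.77 in the electro-acupuncture array and 5.72 in the control array. Neither gene differed from control by more than 0.20 log2 units. The 4-array means of Bbc3, Phlda3, Sesn2 and Zmat3 were only 0.14 to 0.53 above the floor and so close to the bulk of clusters. No detection call was used, and whether these 4 genes stood above background was not tested. The means of Cdkn1a, Mdm2, Ccng1 and Trp53inp1 were 2.69 to 4.0 above the floor.

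**Figure D2:**
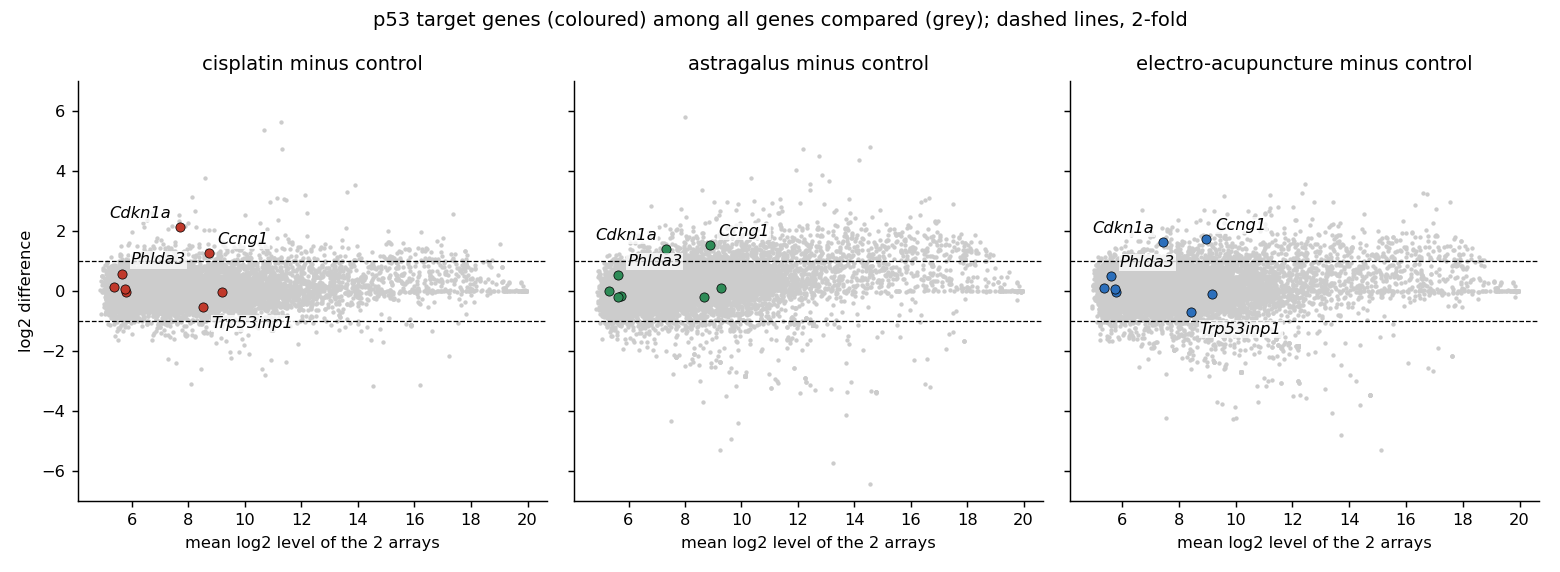
Log2 difference from control (y axis) against the mean log2 level of the 2 arrays (x axis) for the cisplatin, astragalus and electro-acupuncture arrays. Grey points are the 17208 genes compared, coloured points the 8 p53 target genes, and dashed lines mark a 2-fold difference; Cdkn1a and Ccng1 lie above the upper line in each panel.

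Set against the cisplatin array, none of the 8 genes differed by 2-fold. Of all genes, 3.92% differed at least 2-fold either way between astragalus and cisplatin, 3.91% between electro-acupuncture and cisplatin, and 1.53% between astragalus and electro-acupuncture. Cdkn1a was 8.03 in the astragalus array against 8.76 in the cisplatin array, 1.66-fold lower. It was 8.27 in the electro-acupuncture array, 1.40-fold lower than in the cisplatin array. Of the 11236 protein-coding genes, 65 were lower by more in astragalus than in cisplatin, and 308 in electro-acupuncture than in cisplatin. Among all 17208 genes these counts were 584 (3.39%) and 1163 (6.76%). Ccng1 ran the other way, 1.22-fold higher with astragalus and 1.40-fold higher with electro-acupuncture than with cisplatin. For astragalus the Ccng1 difference of 0.29 was 0.10 after quantile normalization and 0.04 with the loess trend removed. Trp53inp1 differed by 0.33 log2 units between astragalus and cisplatin and by -0.18 between electro-acupuncture and cisplatin. Between astragalus and electro-acupuncture, the differences of the 8 genes lay between -0.25 (Zmat3) and 0.51 (Trp53inp1). The medians of the 8 genes were -0.085 for astragalus against cisplatin, -0.045 for electro-acupuncture against cisplatin and -0.10 for astragalus against electro-acupuncture, beside 0.06, 0.02 and 0.06 for all genes.

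A further list of 36 p53 targets, covering death receptors, cell cycle kinases, DNA repair and metabolism, had 34 genes with a cluster of their own and 26 above the floor. In the cisplatin array 0 of the 26 were 2-fold higher or lower than in control. With astragalus 1 was 2-fold higher and 0 lower, and with electro-acupuncture 1 was higher and 1 lower. Of all genes, 2.01%, 6.13% and 4.16% were at least 2-fold higher in cisplatin, astragalus and electro-acupuncture, and 0.965%, 2.68% and 3.11% lower. The medians were 0.00, 0.115 and -0.015 for cisplatin, astragalus and electro-acupuncture against control. Over the scalings they lay between 0.00 and 0.058, between 0.06 and 0.235, and between -0.055 and 0.022, so the electro-acupuncture median had no fixed sign. The gene above 2-fold was Rps27l, a ribosomal protein gene that p53 induces, with levels of 8.44 in the cisplatin array, 9.14 in the astragalus array, 8.97 in the electro-acupuncture array and 7.73 in the control array. Like Ccng1 it was lowest in cisplatin among the treated arrays, with differences from control of 0.71, 1.41 and 1.24. Rps27l has a close paralog, Rps27, so the signal of its probes may in part come from that transcript.

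Siva1, which promotes cell death, was higher in all 3 treated arrays, by 0.50, 0.80 and 0.43 log2 units. Sesn1, a relative of Sesn2, was lower in cisplatin and electro-acupuncture, with differences of -0.50 and -0.59. Its astragalus difference was -0.04 as deposited and 0.08 with array medians subtracted. The death receptor gene Fas was the one more than 2-fold below control in the electro-acupuncture array. Its brightest cluster had levels of 10.01 in the cisplatin array, 9.56 in the astragalus array, 8.74 in the electro-acupuncture array and 10.52 in the control array. That cluster is named for chromosome 17, whereas RefSeq places Fas on chromosome 19. The cluster on chromosome 19 gave 5.56, 5.95 and 5.65 in the cisplatin, astragalus and electro-acupuncture arrays and 5.44 in the control array, which turns the direction, so no difference is assigned to Fas. After quantile normalization or removal of the loess trend, the brightest Fas cluster was more than 2-fold below control in astragalus too. The apoptosis genes Pmaip1 and Tnfrsf10b were below the floor, as were Eda2r, Epha2, Perp, Tigar, Trp73 and Zfp365.

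Upstream of these targets, 16 of 18 listed regulators of p53 were above the floor, and 0 differed 2-fold from control in any treated array. Of all genes, 50.6%, 55.3% and 53.7% were higher than control by any amount in cisplatin, astragalus and electro-acupuncture, and 46.9%, 42.8% and 44.0% were lower. In the cisplatin array 13 of the 16 regulators were lower and 3 higher, with a median of -0.12. In the electro-acupuncture array 13 were lower and 2 higher, with a median of -0.14. The astragalus median was 0.035 as deposited and -0.12 after quantile normalization, so its direction depends on the scaling. Trp53 itself had no cluster of its own and was not analysed here. Usp7, the deubiquitinase that stabilises Mdm2 and p53, had levels of 12.07 in the cisplatin array, 12.80 in the astragalus array, 12.14 in the electro-acupuncture array and 12.62 in the control array. Its astragalus difference of 0.18 was -0.15 after quantile normalization. Mdm4, the relative of Mdm2 that binds and inhibits p53, was lower than control on all 3 arrays, with differences of -0.50, -0.53 and -0.96. With array medians subtracted or the loess trend removed, its electro-acupuncture difference passed 2-fold. Ep300, an acetyltransferase and coactivator of p53, differed by -0.46, 0.03 and -0.28, and its astragalus difference was -0.25 after quantile normalization.

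**Figure D3:**
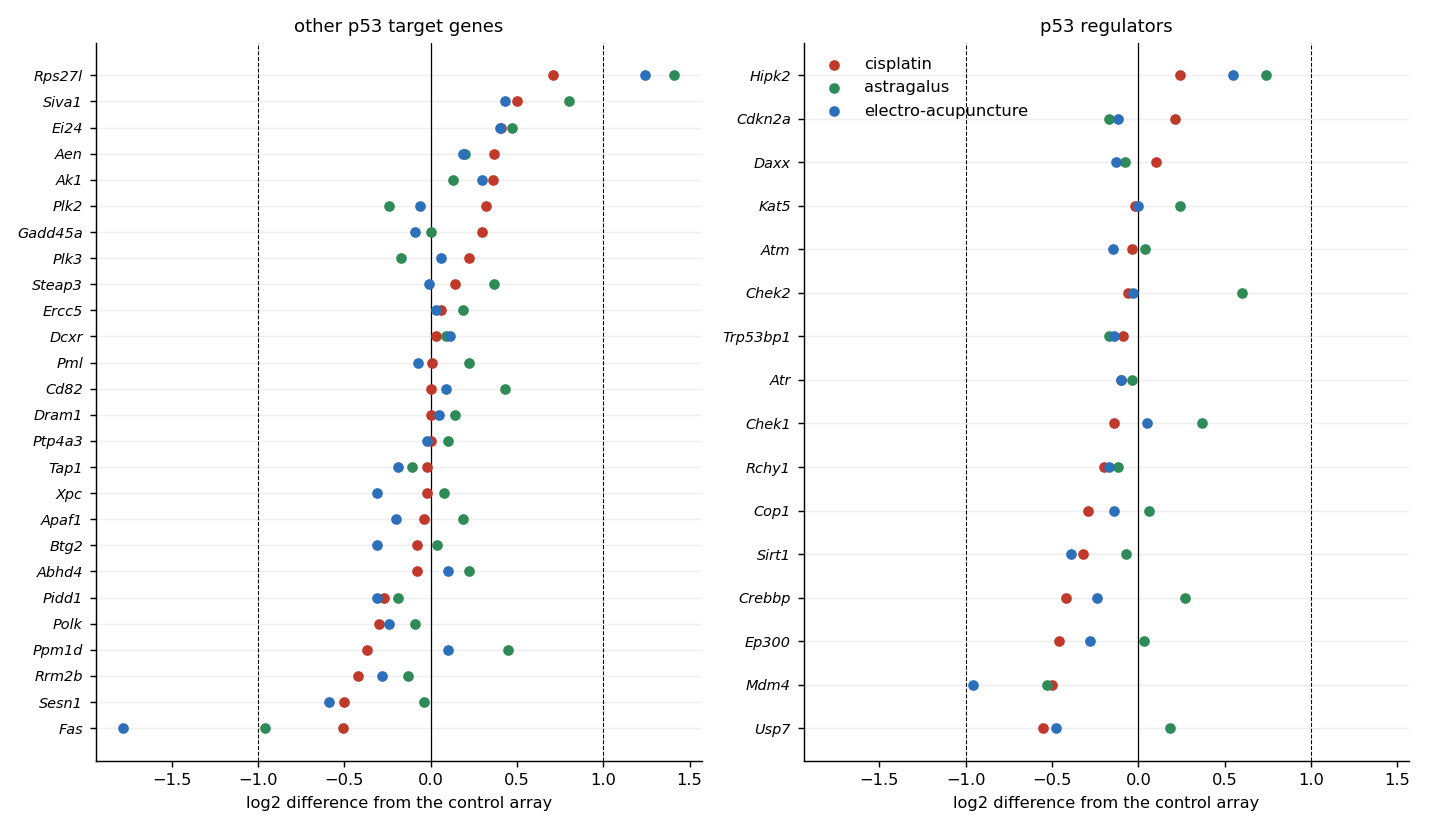
Log2 difference from control (x axis) for the 26 other p53 target genes above the floor (left) and the 16 regulators (right), with 1 point each for the cisplatin, astragalus and electro-acupuncture arrays; dashed lines mark 2-fold. Rps27l is past 2-fold in astragalus and electro-acupuncture, and the Fas points come from a cluster named for another chromosome.

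The p21 gene was the one higher by 2-fold among the genes for cyclin-dependent kinase inhibitors. Cdkn1b, which encodes p27, had levels of 9.56 in the cisplatin array, 9.74 in the astragalus array, 8.99 in the electro-acupuncture array and 10.32 in the control array. It thus lay below control in all 3 treated arrays, with differences of -0.76, -0.58 and -1.33, past 2-fold with electro-acupuncture. Cdkn2c was also below control in all 3, with differences of -0.73, -0.30 and -0.40. Cdkn2d differed by 0.02, 0.34 and -0.36, and Cdkn2a, whose locus encodes Arf, an inhibitor of Mdm2, by 0.21, -0.17 and -0.12. Cdkn2a lay near the floor of 5.235, with levels between 5.24 and 5.62. Cdkn1c and Cdkn2b were below the floor.

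Through p21, p53 is known to lower a set of cell cycle genes that the DREAM complex and RB hold off. Of 23 such genes, 21 were above the floor. Against control their median was -0.27 with cisplatin, 0.55 with astragalus and -0.05 with electro-acupuncture. With cisplatin 16 were lower and 4 higher, and 0 reached 2-fold. Of all genes, 46.9% were lower than control and 50.6% higher in the cisplatin array. With astragalus 20 were higher and 1 lower, and Ccnb2, the gene of cyclin B2, was 2-fold higher, at 12.17 against 11.03 in control. No gene of this list was 2-fold higher in astragalus after quantile normalization or removal of the loess trend, and 4 were with array medians subtracted. The astragalus counts were then 14 higher and 6 lower after quantile normalization and 15 higher and 6 lower with the loess trend removed, with medians of 0.35 and 0.37. Of all genes, 55.3% were higher than control in astragalus as deposited, and 6.13% at least 2-fold higher. The share higher was 55.2% after quantile normalization, 55.6% with the loess trend removed and 69.8% with array medians subtracted. Electro-acupuncture had 8 higher and 13 lower, and its median lay between -0.09 and -0.008 over the scalings. Of all genes, 53.7% were higher than control and 44.0% lower in the electro-acupuncture array.

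Between astragalus and cisplatin, all 21 of these cell cycle genes were higher in astragalus as deposited, with a median of 0.77, while the Cdkn1a difference was -0.73. Of all genes, 56.8% were higher by any amount in astragalus than in cisplatin and 52.5% in electro-acupuncture than in cisplatin. The astragalus share was 52.2% after quantile normalization, 51.2% with the loess trend removed and 71.5% with array medians subtracted. As deposited, 2.00% of all genes were at least 2-fold higher in astragalus than in cisplatin. After quantile normalization or removal of the loess trend 20 of 21 were higher, and the median lay between 0.55 and 0.88 over the scalings. As deposited 3 of them were 2-fold higher in astragalus: Cdk1, the kinase that starts mitosis, at 10.77 against 9.56 in cisplatin, Bub1b, a spindle checkpoint kinase, at 10.70 against 9.57, and Top2a, a topoisomerase, at 15.44 against 14.43. That count was 1 after quantile normalization, 0 with the loess trend removed and 7 with array medians subtracted. In the control array, where Cdkn1a was lowest, Bub1b was 9.82 and Top2a 15.21, between their cisplatin and astragalus levels. After quantile normalization the Top2a difference between astragalus and control was -0.09, against 0.23 as deposited. Electro-acupuncture against cisplatin had 14 of the 21 higher and 6 lower, with a median of 0.14. The values of the list and of Cdkn1a come from the same 4 arrays, and their relation across so few samples was not tested.

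**Figure D4:**
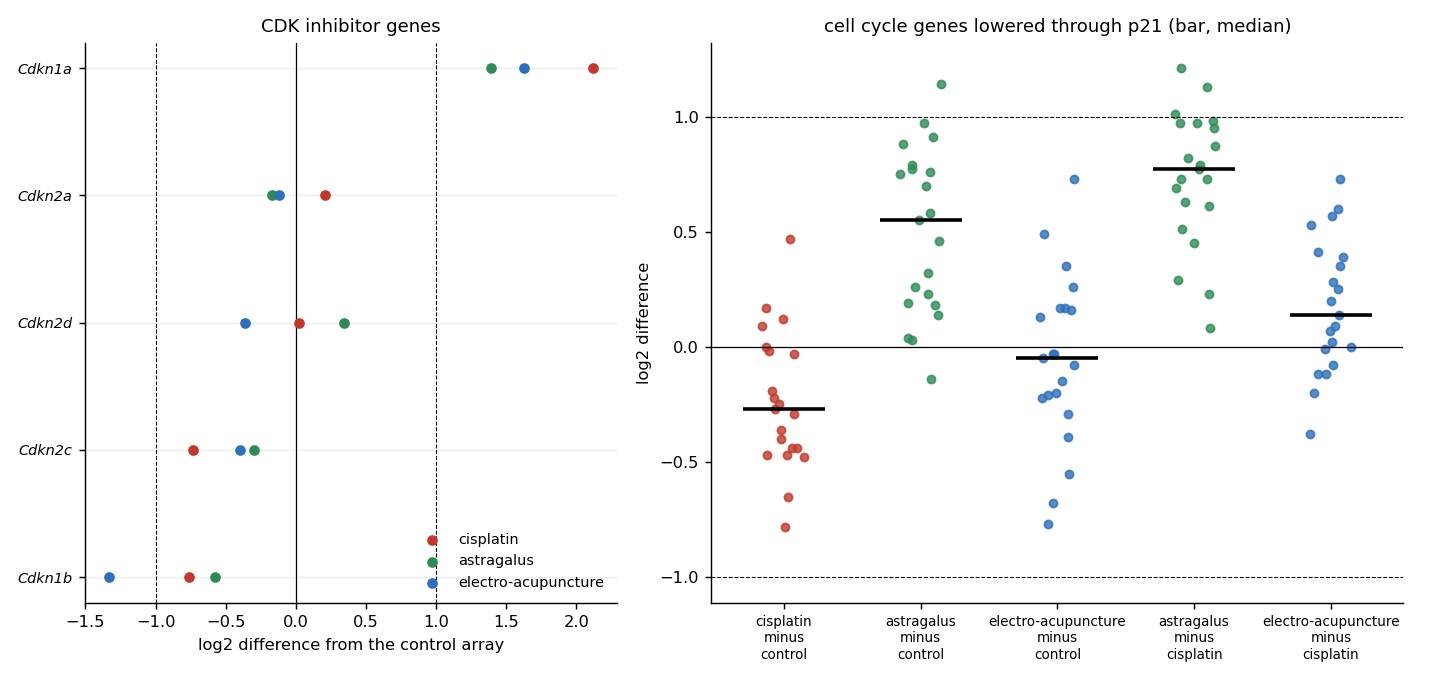
Left, log2 difference from control (x axis) of the 5 cyclin-dependent kinase inhibitor genes above the floor in the cisplatin, astragalus and electro-acupuncture arrays. Right, log2 difference (y axis) of the 21 cell cycle genes lowered through p21 in 5 comparisons, 1 point per gene with a bar at the median; all 21 points lie above 0 for astragalus minus cisplatin.

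Some members also answer to signals other than p53, and lists of genes for 2 of these were set beside them. Sesn2 and Gdf15 are also induced by ATF4, the transcription factor of the amino acid and protein folding stress response. Of 13 genes of that response 7 were above the floor, with medians of 0.16, 0.37 and 0.05 in cisplatin, astragalus and electro-acupuncture against control. The astragalus median equals the difference of the Ddit3 cluster used, and the other Ddit3 cluster gave -0.12 in astragalus. The astragalus median was 0.20 after quantile normalization and 0.17 with the loess trend removed, and the electro-acupuncture median lay between 0.01 and 0.05. Only Asns, asparagine synthetase, passed 2-fold, in astragalus, with levels of 8.29 in the cisplatin array, 9.02 in the astragalus array, 8.53 in the electro-acupuncture array and 7.78 in the control array. Cdkn1a can also be induced by glucocorticoids, and of 11 genes that glucocorticoids induce 11, 10 and 10 were higher than control by any amount in cisplatin, astragalus and electro-acupuncture, beside 50.6%, 55.3% and 53.7% of all genes. The electro-acupuncture count was 9 under each other scaling. Their medians were 0.27, 0.16 and 0.15, with few large differences, and the astragalus median was 0.28 with array medians subtracted.

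Within the glucocorticoid list, Mt1 and Mt2, metallothioneins that bind metals and that metals also induce, had the largest differences with astragalus and electro-acupuncture, while with cisplatin Mt2 was followed by Dusp1. Mt2 had levels of 11.28 in the cisplatin array, 11.94 in the astragalus array, 11.99 in the electro-acupuncture array and 9.70 in the control array. Mt1 differed from control by 0.87, 1.76 and 1.63. As deposited, Mt2 was highest in electro-acupuncture and Mt1 in astragalus. Dusp1, a phosphatase of stress kinases, was 9.09 in the cisplatin array, 8.16 in the astragalus array, 8.39 in the electro-acupuncture array and 8.0 in the control array. It was highest in cisplatin, 2.13-fold above control. Tsc22d3 and Fkbp5, also of that list, differed by at most 0.29 log2 units as deposited. In cisplatin the Tsc22d3 difference was 0.33 after quantile normalization. The part of ATF4 or of glucocorticoids in the differences of the members was not tested.

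Marker genes of several marrow cell types differed between the same arrays, and in bulk RNA a different number of cells of a type and a different amount of RNA per cell cannot be told apart. Of 5 megakaryocyte genes 4, 4 and 3 were 2-fold higher than control with cisplatin, astragalus and electro-acupuncture, among them the platelet genes Pf4, Gp5, Ppbp and Gp9. Their mean level was 12.96, 13.03 and 13.00 in these arrays and 11.26 in the control array. Pf4 read 17.20 on each of the 3 treated arrays, against 15.24 in the control array, so it does not order the treated arrays. Of 6 osteoblast genes 4, 3 and 3 were 2-fold higher, with mean levels of 10.11, 9.03 and 8.37 in the treated arrays and 7.49 in control. They were Bglap, Bglap2 and Sparc in each treated array and also Col1a1 in cisplatin (and in astragalus with array medians subtracted), all genes of bone matrix, and Bglap and Bglap2 are near-identical copies whose signals may be shared. Here cisplatin was highest, and astragalus stood above electro-acupuncture. The osteoblast genes Ibsp and Sp7 were near the floor on all 4 arrays, at 5.29 to 5.84. Of 5 fat cell genes 4, 4 and 2 were 2-fold higher, with mean levels of 8.64, 8.37 and 8.16 in the treated arrays and 7.14 in control. These were Adipoq, Lpl, Fabp4 and Scd1, genes of adiponectin and of fat handling.

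Of 6 macrophage genes 1, 1 and 3 were 2-fold higher, with medians of 0.40, 0.41 and 0.90. The electro-acupuncture median was the highest, and those of cisplatin and astragalus were nearly equal. The macrophage genes past 2-fold were Vcam1 in each treated array and Cd68 and Mrc1 in electro-acupuncture. Early B cell genes were mostly lower, with 3, 3 and 2 of 5 (Il7r, Ebf1 and Cd79a) at least 2-fold below control. The astragalus count was 1 with array medians subtracted. Mean levels were 7.73, 8.08 and 8.19 in the treated arrays and 8.79 in control. Of the 5 early B cell genes 0 were higher than control in cisplatin. In astragalus 1 was higher, by 0.24, and in electro-acupuncture 1 was higher, by 0.92. Endothelial genes had medians of 0.42, 0.46 and 0.47, and T cell genes 0.26, 0.08 and 0.07. Progenitor genes had medians of 0.065, -0.06 and 0.025 and erythroid genes -0.165, 0.605 and 0.20, where the astragalus array stood highest, with Rhag past 2-fold. The astragalus and electro-acupuncture medians of the progenitor genes were 0.06 and -0.015 with array medians subtracted, each a change of sign. Those of the erythroid genes were 0.36 and 0.058 after quantile normalization, and that of the T cell genes in astragalus was 0.20 with array medians subtracted. Lat, an adaptor gene of the T cell list, passed 2-fold in cisplatin and electro-acupuncture, and in astragalus too with array medians subtracted. The other genes of that list did not share this. In cisplatin Cd3d differed by -0.36, and in electro-acupuncture 2 of the 5 T cell genes were lower than control. Mpo and Elane, enzymes of early neutrophil granules, were past 2-fold in astragalus and electro-acupuncture. Mpo was also past it in cisplatin, where it was 2.14-fold higher but under 2-fold after quantile normalization, at a log2 difference of 0.95. The neutrophil genes Ltf and Camp differed by -0.28 and -0.37 in cisplatin. As deposited, the medians of the 7 neutrophil genes were 0, 0.13 and 0 in cisplatin, astragalus and electro-acupuncture. Of the neutrophil genes S100a8 and S100a9 were at the highest value of the table, 19.93, on all 4 arrays, so they show no difference, and Ngp read 18.77 or 18.78 on each. Skeletal muscle genes were near the floor, at 5.16 to 5.92 for the 3 above it. Each list of marrow cells had genes above the floor, and no detection call was used. The part of these cell types in the differences of Cdkn1a, Ccng1 and the other members was not tested.

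**Figure D5:**
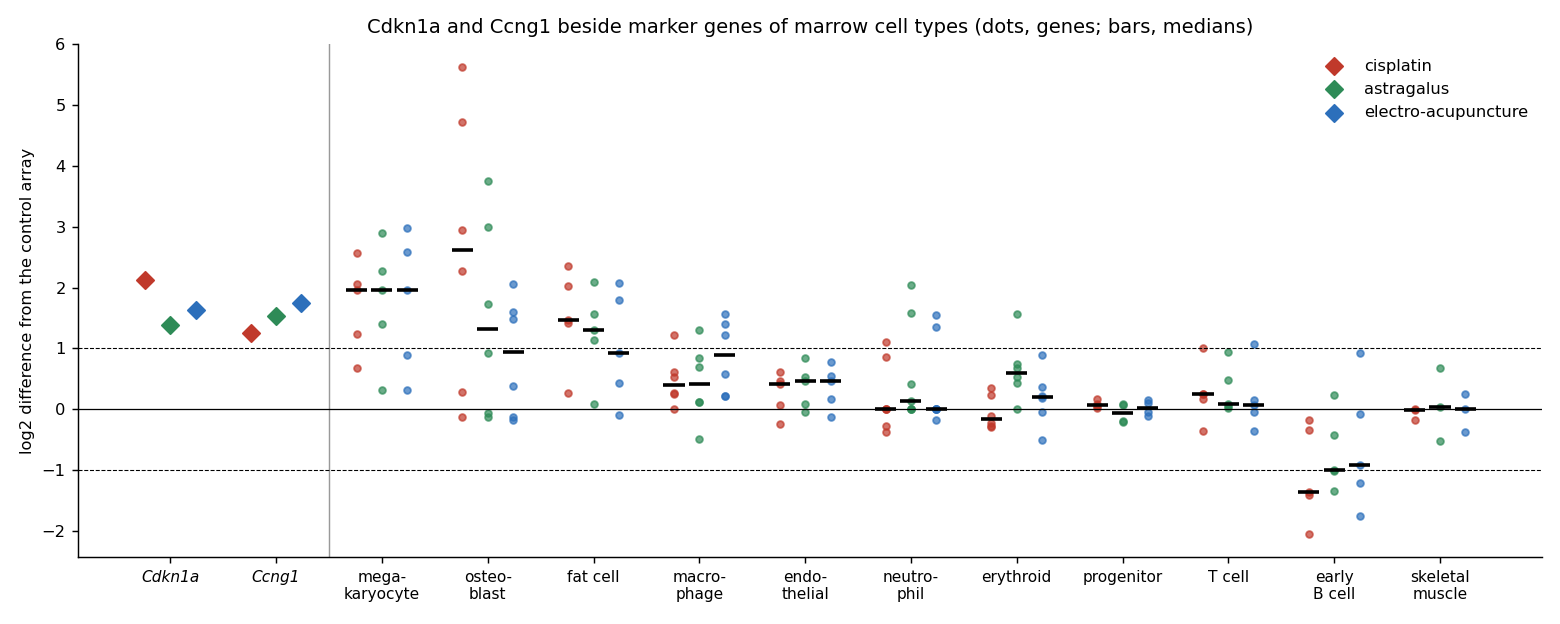
Log2 difference from control (y axis) in the cisplatin, astragalus and electro-acupuncture arrays for Cdkn1a and Ccng1 (diamonds) and for marker genes of 11 cell types (dots, with a bar at each median); dashed lines mark 2-fold. The megakaryocyte medians are 1.96 in each treated array, the value of Pf4, which read 17.20 on all 3, and the osteoblast medians are 2.615, 1.325 and 0.935.

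The protein-coding genes whose pattern over the 4 arrays was most like that of Cdkn1a were found by the Euclidean distance between profiles centred on their own means, among 11235 genes. They were Cxcl9 (a chemokine induced by interferon gamma, distance 0.38), Clca3a1 (a chloride channel regulator, 0.39), Tubb1 (the beta-tubulin of platelets, 0.50), Igfbp4 (a binding protein of insulin-like growth factors, 0.50) and Lrrc8b (an anion channel subunit, 0.51). Ccng1 was farther from Cdkn1a, at 0.84. Nearest to Ccng1 were Esm1 (a proteoglycan of endothelial cells, 0.062), Bgn (biglycan, a matrix proteoglycan, 0.079) and Atp6v0e (a proton pump subunit, 0.15). Esm1 had levels of 6.99 in the cisplatin array, 7.27 in the astragalus array, 7.40 in the electro-acupuncture array and 5.72 in the control array. With 4 arrays many genes can share a pattern, and the distances describe these arrays only.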

How the data were processed

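Mouse marrow RNA was hybridised to 4 arrays. The authors deposited log2 values of transcript clusters, between 2.70 and 19.93. Affymetrix Expression Console made them, per the submitters' processing notes. Its version and summary method and the genome build were not given in the sources used here. No detection call or replicate was used, so the number of arrays limits the precision, and no signal over background can be given.

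Of 65956 clusters, 32750 were in the platform's gene table, 31258 of them with 1 gene. Symbols were updated through RefSeq (GRCm38.p6). Differences of log2 values were taken between arrays for 6 comparisons and counted at 2-fold, with no test. The steps were tested on simulated data. Work was done in Python 3.11.15 with pandas 2.3.3, numpy 2.4.6 and statsmodels 0.14.6 (loess span 0.3).

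All 10 members are named. From other lists, genes at least 2-fold from control, the 3 largest cisplatin differences of p53 targets and regulators (4 with a tie), and all kinase inhibitors are named. The 5 nearest profiles to Cdkn1a and 3 to Ccng1 follow. Tsc22d3, Fkbp5, Ibsp, Sp7, Ltf, Camp, Cd3d, Ddit3 and the genes between astragalus and cisplatin were named after their values were seen. Members and lists were chosen with earlier results of these data known. Alternatives were other scalings, filters, thresholds and cluster choices.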

Additional observations from a re-analysis of the deposited data

How the results depend on the processing

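No paired analysis was possible because each group has 1 array, and for the same reason no replicate could be left out. Cdkn1a and Ccng1 stayed at least 2-fold higher than control in all 3 treated arrays under quantile normalization, array medians subtracted, the loess trend removed, no filter, a floor at the 75th percentile, the mean of a gene's clusters, and clusters on the RefSeq chromosome, the last added after seeing the data. At 1.5-fold, 1 member (Cdkn1a) differed between astragalus and cisplatin, against 0 at 2-fold, and 1 member (Trp53inp1) was lower than control with electro-acupuncture, against 0 at 2-fold.

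The floor at the 75th percentile drops the 4 members of low level. Medians of the members left were then 0.605 for cisplatin, 0.74 for astragalus and 0.76 for electro-acupuncture against control, 0.21 for astragalus against cisplatin, -0.125 for electro-acupuncture against cisplatin and 0 for astragalus against electro-acupuncture. Over the scalings the medians of all 8 members lay between 0.09 and 0.12 for cisplatin, 0.02 and 0.17 for astragalus and 0.035 and 0.075 for electro-acupuncture against control. They lay between -0.085 and 0.025 for astragalus against cisplatin, -0.095 and -0.045 for electro-acupuncture against cisplatin and -0.10 and 0.06 for astragalus against electro-acupuncture. The highest astragalus values came with array medians subtracted, and quantile normalization put astragalus against electro-acupuncture at 0.0025. Subtracting medians moved the median of all genes for astragalus against control to 0.17, where it was 0.05 as deposited.

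Genes at least 2-fold either way were 2.98% of all for cisplatin, 8.81% for astragalus and 7.26% for electro-acupuncture against control. Without the filter these shares were 1.82%, 5.17% and 4.28%, with the floor at the 75th percentile 4.89%, 14.9% and 12.2%, and at 1.5-fold 11.4%, 21.1% and 18.0%. For astragalus and electro-acupuncture against cisplatin the shares were 2.45% and 2.38% without the filter, 6.41% and 6.06% with the higher floor, and 14.4% and 11.3% at 1.5-fold.

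The share of higher genes among those past 2-fold was 69.6% for astragalus against control and 58.9% after quantile normalization. For astragalus against cisplatin it was 51.0%, and 33.7%, 71.8% and 29.1% after quantile normalization, median subtraction and loess. For astragalus against electro-acupuncture it was 43.0%, and 26.9%, 71.5% and 24.7%. The astragalus array had a wider spread of values, 7.20 log2 units between its 5th and 95th percentiles against 6.80 to 6.83 on the other arrays. The cause of these shifts was not tested.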

Other observations

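Relatives of the members gave 17 of 18 genes above the floor, with medians of -0.03, -0.04 and -0.05 in cisplatin, astragalus and electro-acupuncture against control; with array medians subtracted the astragalus median was 0.08 and the electro-acupuncture median -0.09. Bak1, the pore-forming relative of Bax in the mitochondrial death pathway, was the one past 2-fold as deposited, in astragalus. Its levels were 8.10 in the cisplatin array, 8.92 in the astragalus array, 8.40 in the electro-acupuncture array and 7.63 in the control array, differences of 0.47, 1.29 and 0.77. Of all genes, 6.13% were at least 2-fold higher than control in astragalus. Mdm4, also on this list, was more than 2-fold below control in electro-acupuncture with array medians subtracted or the loess trend removed. Ccng2, which encodes cyclin G2, did not share the pattern of Ccng1: its levels were 7.03 in the cisplatin array, 7.20 in the astragalus array, 6.97 in the electro-acupuncture array and 7.46 in the control array. Phlda1, a relative of Phlda3, was higher in all 3 treated arrays, by 0.79, 0.32 and 0.47, and Phlda2 was nearly equal in cisplatin, at 5.39 against 5.42 in control. Among genes for BH3-only proteins, Bmf was lower than control, with differences of -0.65, -0.41 and -0.16, and Bid was higher by 0.11, 0.58 and 0.36. Ccng2, Phlda1, Phlda2, Bmf and Bid were chosen after their values were seen.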
